A study of Mus musculus with 2 samples.

Results

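Conventional dendritic cells of the mouse kidney were picked out of 2 scRNAseq libraries by the UMIs (unique molecular identifiers, 1 per captured RNA molecule) of a few genes in each cell. A cell belonged to the set when Flt3, Cd209a, Xcr1, Clec9a and Ccr7 together had at least 2 UMIs, when Cd74, H2-Aa and H2-Ab1 together made up at least 1% of its UMIs, when C1qa, C1qb and C1qc stayed below 0.5% and when Cd3e and Cd79a were at 0. Of the 25702 cells that passed the quality limits, 53 met the rule. They were 31 of 12586 cells of the control library (0.246%, exact 95% interval 0.167 to 0.349%) and 22 of 13116 cells of the ischemia library (0.168%, 0.105 to 0.254%), so the intervals of the shares overlapped. The levels of those genes chose the cells and are given below as a description.

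The series profiled an ischemic and an uninjured kidney of male wildtype C57BL/6J mice aged 19 weeks, and the sources used here do not say whether both came from the same mouse. The ischemia library came from the kidney that underwent 27 min of ischemia and 24 h of reperfusion (I/R), and the control library from a contralateral, uninjured kidney, which is no sham kidney. Each condition was 1 library of 1 kidney, so no test between the conditions was possible: every interval below covers counting error only, and an interval that leaves out a ratio of 1 describes these 2 libraries, not the conditions. A lower share of cells can come from fewer dendritic cells or from more cells of other types, and the digestion of the tissue sets which cells are recovered; these cannot be told apart here.

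Conventional dendritic cells take up antigen in tissues, cut it into peptides and present it to T cells on MHC class I and class II molecules. They depend on the receptor FLT3 and fall into cDC1, which need IRF8 and BATF3, carry XCR1 and the dead-cell receptor CLEC9A and present antigen from dying cells on MHC class I, and cDC2, which mainly prime CD4 T cells and in mice often carry CD209a. CD209a is also found on dendritic cells that arise from monocytes. When either kind matures it turns on CCR7, the chemokine receptor that leads it to the draining lymph node.

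MHC class II genes share a promoter module, the X and Y boxes, through which the co-activator CIITA acts. It is printed here because class II genes are followed below. The stretches are from RefSeq promoters (GRCm38.p6, 250 bases before to 50 after each gene start), 5′ to 3′ on the strand of the gene, with the core of the X box (ACNGATG) and, 28 to 32 bases further on, the Y box (ATTGG, the other strand of CCAAT) in capitals:
H2-Eb1: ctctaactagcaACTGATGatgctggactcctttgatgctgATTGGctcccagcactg
H2-Eb2: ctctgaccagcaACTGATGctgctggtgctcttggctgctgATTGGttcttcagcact
H2-DMb1: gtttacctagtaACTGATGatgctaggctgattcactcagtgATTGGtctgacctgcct
H2-DMb2: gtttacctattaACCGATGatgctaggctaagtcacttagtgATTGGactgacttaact

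They lie on the plus strand at chr17:34305767-34305824 (H2-Eb1, X core starting 88 bases before the RefSeq start), chr17:34325534-34325591 (H2-Eb2, 129 bases), chr17:34153088-34153146 (H2-DMb1, 91 bases) and chr17:34145117-34145175 (H2-DMb2, 120 bases). By the GENCODE genes matched to the counts, which start further upstream, the H2-DMb1 and H2-DMb2 stretches lie inside the genes. The cores started 29 bases apart in the H2-Eb pair and 30 bases apart in the H2-DMb pair. Of the 8 class II genes with a promoter in the table, of 11 searched, 4 held the pair in this order and spacing, against 14 of 32851 RefSeq promoters (0.0426%) on the strand of the gene and 20 (0.0609%) on either strand. The X core alone stood in 9.85% of promoters and the Y box alone in 37.4%, on either strand, and the letters of both motifs do not overlap. None of the 4 dendritic cell rule genes with an entry held the pair, nor did H2-Aa, the 1 class II rule gene with an entry. A match of letters is not a measured binding site.

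The chosen cells were deep. They had a median of 9416 UMIs (2278 to 23797) and 2525 genes in control and of 12615.5 UMIs (2398 to 31322) and 3099.5 genes in ischemia, against medians of 3839 and 2138.5 UMIs over all kept cells. In total they held 315049 and 283300 UMIs, of which a count of 3 is 9.52 and 10.6 CPM (UMIs of a gene scaled to 1000000 UMIs of the summed cells). Mitochondrial UMIs had medians of 3.27% and 3.90%. The libraries shared 88 cell barcodes, none of them between chosen cells, though 1 chosen control cell had a barcode that also occurred in the ischemia library.

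Several cells lay near the limits of the rule. Among cells that met the other 3 conditions, 5 control cells and 1 ischemia cell had exactly 2 UMIs of the dendritic cell genes, and 11 and 10 cells just outside had 1. For the class II share, 2 cells in each library lay between 1 and 1.5%, 3 and 4 cells lay just outside between 0.5 and 1%, and a further 7 and 15 lay below 0.5%. For C1q, 1 control cell lay inside between 0.1 and 0.5% and 4 and 1 cells lay outside, while 26 and 16 chosen cells had no C1q UMI.

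Rule genes can only describe the chosen cells. Flt3 was found in 18 of 31 control cells and 18 of 22 ischemia cells (58.1 and 81.8%), against 0.131 and 0.865% of thick ascending limb cells, an epithelial type that should lack it and whose cells were deeper (medians 15581.5 and 27344 UMIs). Cd209a had a UMI in 18 and 7 of the chosen cells and in none of the 766 and 347 thick ascending limb cells. The label was checked on genes outside the rule. Zbtb46, the transcription factor gene that separates conventional dendritic cells from monocytes and macrophages, stood at 92.0 CPM in control (13 of 31 cells) and 84.7 CPM in ischemia (12 of 22 cells), against 7.48 and 3.86 CPM in C1q-high macrophages and 4.54 and 7.90 CPM in C1q-low myeloid cells. Itgax, which encodes CD11c, was at 66.7 and 60.0 CPM (13 and 11 cells), close to the 72.0 and 76.7 CPM of the C1q-high macrophages. In C1q-low myeloid cells it was lower, at 15.1 and 34.7 CPM. Thick ascending limb cells had a Zbtb46 UMI in 3.26 and 14.4% and an Itgax UMI in 0.261 and 0.865% of cells. The summed level of Zbtb46 thus set the cells apart from C1q-high macrophages and C1q-low myeloid cells in both libraries. That of Itgax did not set them apart from the C1q-high macrophages. The C1q-low set was defined to leave out cells with at least 2 UMIs of the dendritic cell rule genes. Its contrast with the chosen cells is therefore not independent of the rule. By the subsets described next, Zbtb46 had a UMI in 13 of 21 Xcr1/Clec9a-led and 3 of 4 Ccr7-led cells but in 7 of 25 Cd209a-led cells, so this marker bears least on the Cd209a-led cells.

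Each cell was then assigned to the rule gene that led it: Cd209a, Xcr1 with Clec9a, or Ccr7. Cd209a led 18 of 31 control cells (58.1%, 39.1 to 75.5%) and 7 of 22 ischemia cells (31.8%, 13.9 to 54.9%), and Xcr1 with Clec9a led 11 (35.5%, 19.2 to 54.6%) and 10 (45.5%, 24.4 to 67.8%). Ccr7 led 1 control cell and 3 ischemia cells, and 1 and 2 cells had UMIs of Flt3 alone. The intervals of each share overlapped between the libraries. The split was clean: in all 50 assigned cells the second set was at 0, although 4 of them led by exactly 1 UMI. In the heat map of the cells the genes of the cDC1 list fill the first block of columns and those of the cDC2 list the next.

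**Figure D1:**
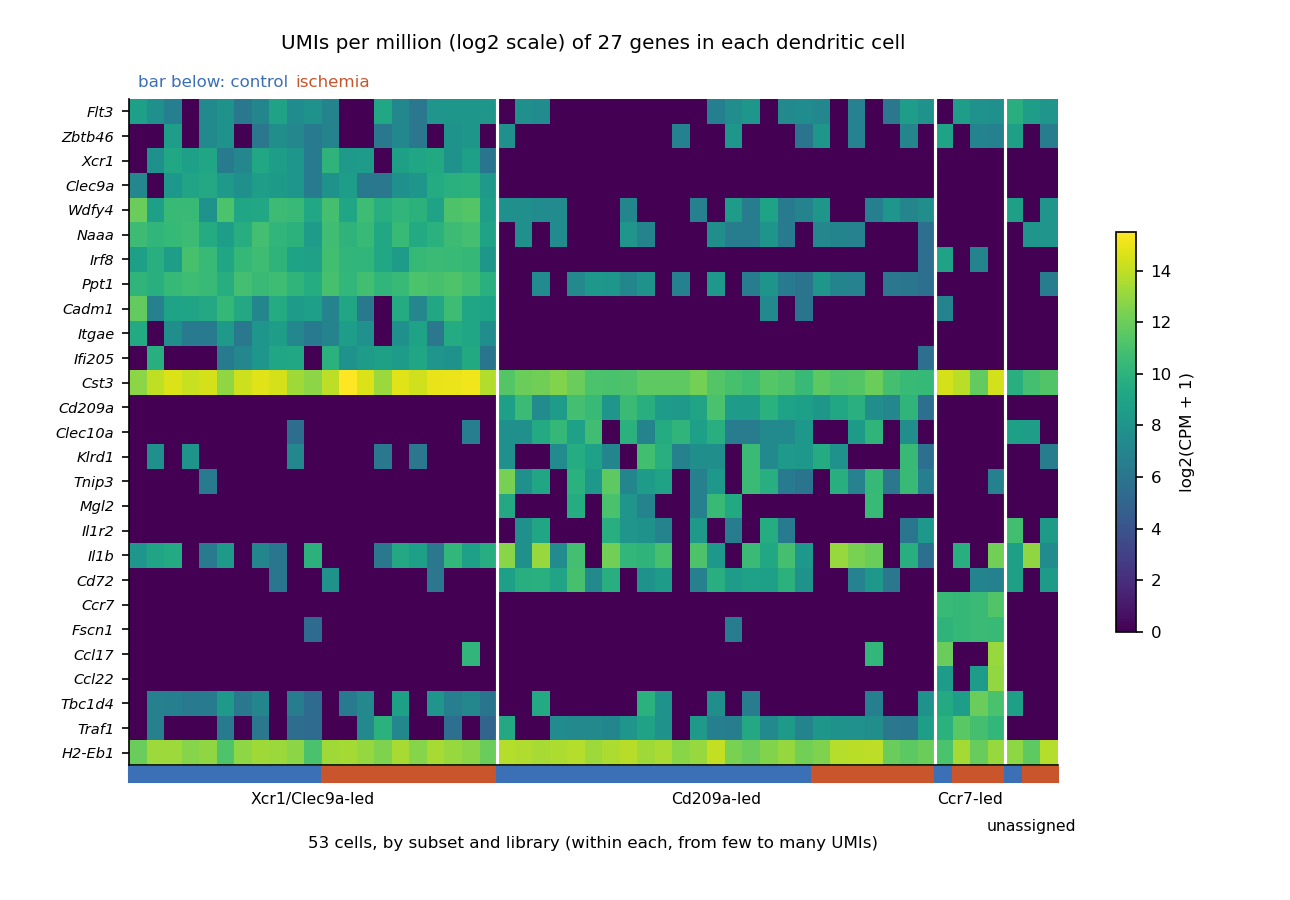
CPM on a log2 scale after adding 1 (colour) of 27 genes (rows) in each of the 53 dendritic cells (columns), ordered by subset and library. The 21 Xcr1/Clec9a-led cells have Irf8, Naaa and Ppt1 in every cell, the 25 Cd209a-led cells have Cd209a in every cell and Irf8 in 1, and the 4 Ccr7-led cells have Fscn1 beside Ccr7, while H2-Eb1 is present in all 53.

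Xcr1/Clec9a-led and Cd209a-led cells differed in many genes that did not assign them. Of 1607 genes with at least 50 UMIs in at least 10 chosen cells, 149 (9.27%) were at least 2-fold higher and 162 (10.1%) at least 2-fold lower in Xcr1/Clec9a-led cells, 95 and 94 of them within each library by itself. These counts include Xcr1, Clec9a and Cd209a, which assigned the cells. The per-cell CPM ranges of the 21 and 25 cells did not overlap for 6 genes (0.373%), of which Cd209a had assigned the cells. The other 5, named after their values were seen, were Irf8, Cst3, Naaa, Ppt1 and Fcer1g. These cells came from the same 2 kidneys and are not replicates, so the contrast is a description.

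Irf8, the transcription factor gene that cDC1 need, ran from 287 to 1985 CPM (median 1149) in Xcr1/Clec9a-led cells, all 21 of which had a UMI. In Cd209a-led cells it had 1 UMI in 1 of 25 cells (50.1 CPM). The summed levels were 975 and 4.23 CPM, a ratio of 230 (41.0 to 9126). No cell of either subset reached the range of the other.

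Cst3, which encodes the cathepsin inhibitor cystatin C, ran from 7186 to 46086 CPM (median 21008) in Xcr1/Clec9a-led cells and from 1304 to 6073 CPM (median 2589) in Cd209a-led cells, a ratio of 8.18 (7.53 to 8.90) for the sums. Naaa, a lysosomal amidase gene, ran from 378 to 1876 CPM against 0 to 271 CPM (ratio 14.9, 9.15 to 25.8). Ppt1, which encodes a lysosomal thioesterase, ran from 756 to 2431 CPM against 0 to 311 CPM (ratio 13.1, 8.84 to 20.3). Naaa and Ppt1 act in lysosomes, where antigen is broken down, but the 14 measured genes of the lysosome and cathepsin list, which holds Cst3, differed in both directions, with 3 at least 2-fold higher, 4 lower and a median log2 ratio of -0.46, against 9.27% higher and 10.1% lower over all genes. Psap, the precursor of the saposins that help break down lipids in lysosomes, was among the higher ones at 2246 against 322 CPM (ratio 6.98, 5.51 to 8.97).

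Fcer1g, the signalling chain of activating Fc and C-type lectin receptors, went the other way. It ran from 0 to 289 CPM (median 31.9) in Xcr1/Clec9a-led cells and from 501 to 2968 CPM (median 1567) in Cd209a-led cells. The summed levels were 83.1 and 1468 CPM, a ratio of 0.0566 (0.0364 to 0.0843), with 0.0588 and 0.0544 within the control and ischemia libraries.

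All 11 measured cDC1 list genes outside the rule were at least 2-fold higher in Xcr1/Clec9a-led cells, against 9.27% of all 1607 genes. Their median log2 ratio was 3.79, against 0.07 over all genes. Cadm1, a cell adhesion gene, was at 617 against 12.7 CPM (ratio 48.6, 16.4 to 238), Wdfy4, needed for cross-presentation, at 1233 against 140 CPM (8.83, 6.18 to 13.0), and Tlr3, a sensor of double-stranded RNA, at 176 against 12.7 CPM (13.8, 4.5 to 69.2). Itgae, the integrin chain CD103, had 82 UMIs in 19 of 21 cells and none in the 25 Cd209a-led cells. By the exact interval this is at least 16.4-fold higher (20.6-fold against a floor of 3 UMIs over the subset). Ifi205, an interferon-inducible gene, had 96 UMIs against 1 (ratio 72.5, 12.7 to 2893).

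Of the 6 measured cDC2 list genes outside the rule, 4 were at least 2-fold lower and 0 higher in Xcr1/Clec9a-led cells (median log2 ratio -3.46). Over all genes 10.1% were lower and 9.27% higher. Clec10a, a galactose-binding lectin of cDC2, had 3 UMIs against 91 (9.59 and 385 CPM, ratio 0.0249, 0.00504 to 0.0751), and Klrd1, the lectin chain CD94, had 10 UMIs against 94 (0.0803, 0.0373 to 0.154). Of the same list Tnip3, an inhibitor of NF-kB signalling, had 1 UMI against 145, and Cd300a, an inhibitory receptor gene, 8 against 59. Genes of other lists, picked after their values were seen, were also higher in Cd209a-led cells. They were the calcium-binding gene S100a4 (1896 against 51.1 CPM) and Ccl3, a chemokine for monocytes and T cells (88 UMIs against 0). Il1b stood at 1743 against 390 CPM, and its per-cell range in Cd209a-led cells, from 0 to 8974 CPM with a median of 1089, overlapped that of Xcr1/Clec9a-led cells, from 0 to 1215 CPM with a median of 139. Il1r2, the decoy receptor for IL-1, was found in Cd209a-led cells but had no UMI in the 21 Xcr1/Clec9a-led cells.

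Of 13 measured MHC class I genes, 6 were at least 2-fold higher in Xcr1/Clec9a-led cells and 0 lower (median log2 ratio 0.80), against 9.27% higher and 10.1% lower over all genes. Of 13 MHC class II genes, 3 of which chose the cells, 0 were higher and 3 lower (median -0.31). Of 18 immediate early genes, which tissue digestion also induces, 8 were at least 2-fold lower and 2 higher in Xcr1/Clec9a-led cells.

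**Figure D2:**
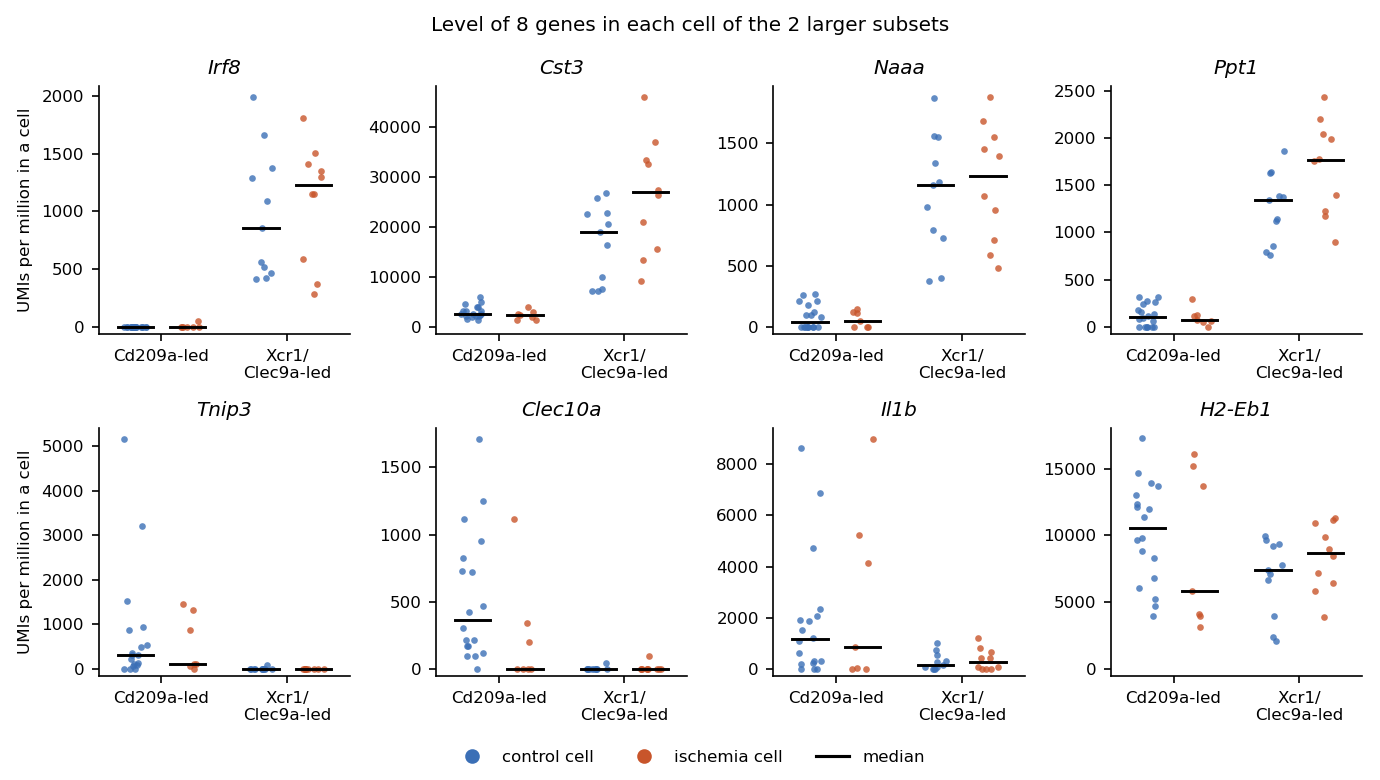
CPM of 8 genes (panels, linear axes) in each cell of the Cd209a-led and Xcr1/Clec9a-led subsets, control and ischemia cells apart, with bars at the medians. For Irf8, Cst3, Naaa and Ppt1 the subsets do not overlap, for Tnip3, Clec10a, Il1b and H2-Eb1 they do, and control and ischemia cells of a subset overlap in every panel.

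The 4 Ccr7-led cells carried several genes of mature dendritic cells at once. The control cell, with 8330 UMIs in all, had 12 UMIs of Ccr7, 33 of Ccl17 and 3 of Ccl22 (chemokines that draw CCR4-bearing T cells), 9 of Fscn1 (an actin-bundling protein of mature dendritic cells) and 21 of Ccl5. An ischemia cell with 9155 UMIs had 23 of Ccr7, 80 of Ccl17, 73 of Ccl22, 13 of Fscn1 and 43 of Il1b. A second, with 8094 UMIs, had 12 of Ccr7, 12 of Fscn1 and 32 of Tbc1d4, but none of Ccl17. The last and shallowest, with 2398 UMIs, had 3 of Ccr7, 3 of Fscn1 and 7 of Traf1, and none of Ccl17 or Ccl22. Ccr7 had UMIs in these 4 cells alone of the 53, and no difference with ischemia can be read from 1 cell against 3. H2-Eb2, whose promoter is printed above, had 9 UMIs in all chosen cells, in 2 ischemia cells that were both Ccr7-led.

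MHC class II genes were high in the chosen cells of both libraries. H2-Eb1, which did not serve in the rule, ran from 2101 to 17293 CPM per control cell (median 8815) and from 3116 to 16079 CPM per ischemia cell (median 8527), and every cell had at least 17 UMIs. The ranges of the libraries overlapped almost fully, and the summed levels were 7837 and 7801 CPM, a ratio of ischemia to control of 0.995 (0.939 to 1.05). H2-DMa and H2-DMb1, whose product loads peptides onto class II molecules, were at 784 and 777 CPM (ratio 0.991, 0.822 to 1.19) and at 587 and 551 CPM (0.938, 0.753 to 1.17). Ciita, the co-activator named above, was at 279 and 244 CPM (0.872, 0.627 to 1.21).

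Of the 10 measured genes of the class II list that the rule did not use, 0 were at least 2-fold higher or lower in ischemia, with a median log2 ratio of -0.01, and they summed with the unmeasured ones to 11833 and 11811 CPM. Over all 1607 genes 1.99% were at least 2-fold higher and 3.42% lower, so 0 of 10 is near the background. The rule genes of class II stood at 6843 and 6491 CPM (H2-Aa), 7408 and 7663 CPM (H2-Ab1) and 16997 and 14790 CPM (Cd74). Among the accessory genes Ctss, a protease that trims the invariant chain, had a ratio of 0.739 (0.617 to 0.884) and Ifi30, a reductase of the same compartment, was at 784 and 1094 CPM (interval of the ratio 1.18 to 1.66).

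C1q-high macrophages, 189 control and 215 ischemia cells, differed in this. Their H2-Eb1 was at 7677 and 2529 CPM in the control and ischemia libraries (ratio 0.329, 0.318 to 0.341), H2-DMa at 512 and 195 CPM (0.381, 0.334 to 0.434) and Ciita at 83.3 and 17.4 CPM (0.209, 0.138 to 0.311). The whole list summed to 39869 and 16883 CPM in them, and to 43082 and 40755 CPM in the dendritic cells, most of it from the 3 rule genes. C1q-low myeloid cells, 69 and 294 cells that also held 9561 and 8077 CPM of the tubule injury gene Spp1, summed to 5260 and 8079 CPM. H2-DMb2, H2-Oa and H2-Ob, which encode chains of H2-DM and H2-O, set dendritic cells apart from the C1q-high macrophages in either library. They were at 117, 197 and 98.4 CPM in control dendritic cells and at 2.81, 15.0 and 11.2 CPM in control macrophages. In ischemia they were at 131, 152 and 113 CPM in dendritic cells and at 3.38, 1.93 and 3.38 CPM in macrophages. A set of B cells also held them, at 65.6, 35.0 and 61.2 CPM in control and 69.9, 46.6 and 83.9 CPM in ischemia. H2-DMb1 and H2-DMb2 are close copies, so their split of the reads is uncertain.

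The class II floor of the rule bears on this directly. With the floor taken away, the rule took 41 cells in each library, and H2-Eb1 then stood at 6133 and 4274 CPM (ratio 0.697, 0.659 to 0.737). Put on the macrophages, the floor kept 173 of 189 control cells and 86 of 215 ischemia cells, and their H2-Eb1 stood at 8406 and 5277 CPM (0.628, 0.604 to 0.652). The level of class II in the chosen ischemia cells therefore rests in part on a rule that leaves out cells below 1%, and what the cells below it were was not tested. The subsets differed in direction: H2-Eb1 was at 9362 and 7581 CPM in Cd209a-led cells (1438 and 627 UMIs, ratio 0.810) and at 6603 and 7815 CPM in Xcr1/Clec9a-led cells (1.18, 1.09 to 1.29).

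**Figure D3:**
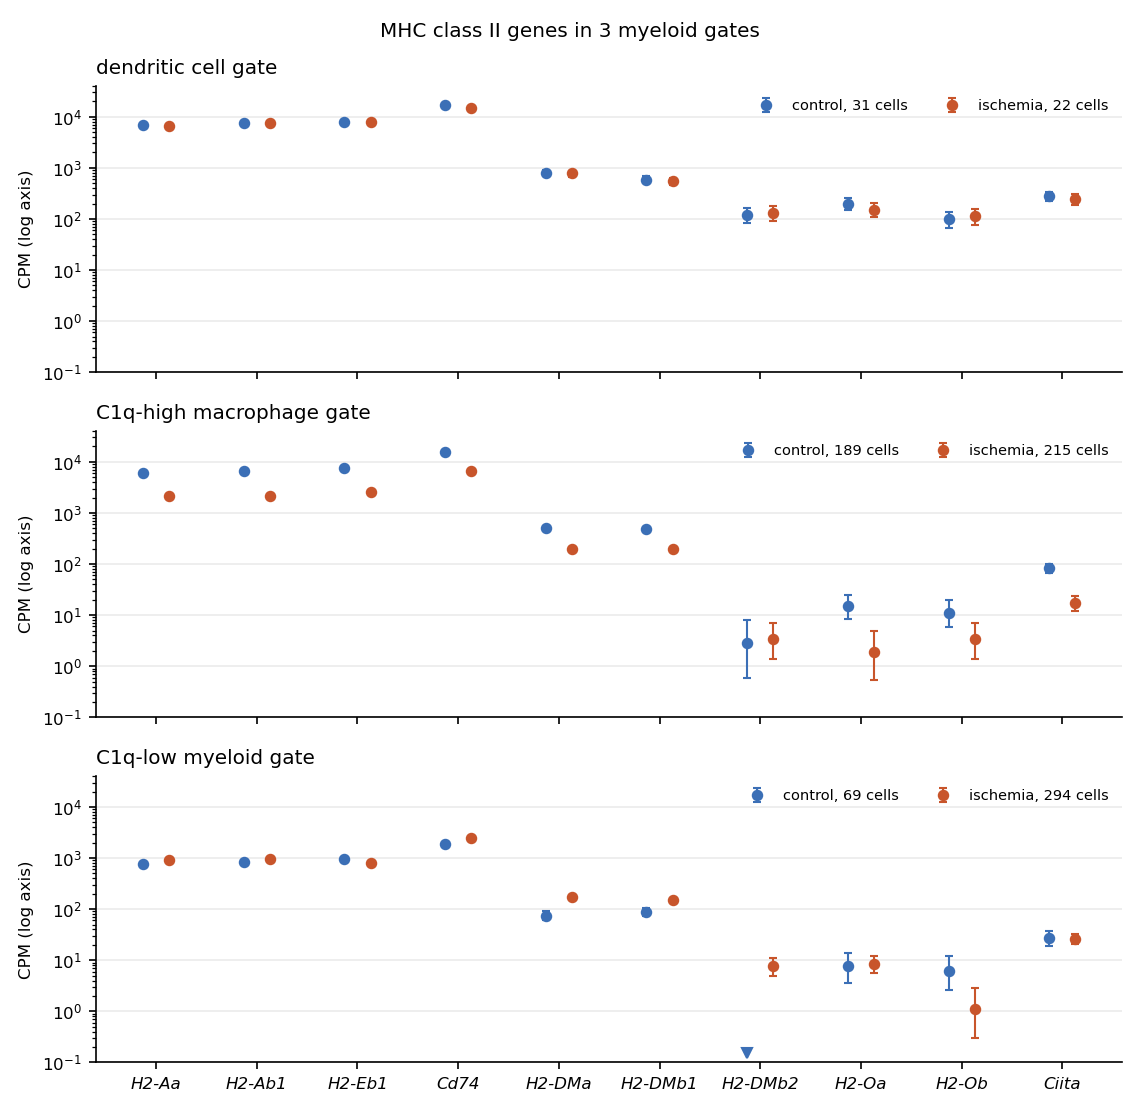
Summed CPM (log axis, with exact 95% counting intervals) of MHC class II genes in control and ischemia cells of 3 gates: dendritic cells, C1q-high macrophages and C1q-low myeloid cells. The libraries lie on each other in dendritic cells, chosen with a floor on 3 of these genes, while the macrophages, chosen with no such floor, hold 7677 and 2529 CPM of H2-Eb1.

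Over all 1607 measured genes the median log2 ratio of ischemia to control was 0.04. In ischemia 32 genes (1.99%) were at least 2-fold higher and 55 (3.42%) at least 2-fold lower. Of these, 15 and 26 had at least 2 times the CPM of the remaining kept cells of the library where the dendritic cells were higher, the condition for naming a gene here, and the other 17 and 29 did not. The scatter of the measured genes shows most of them close to equal levels.

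**Figure D4:**
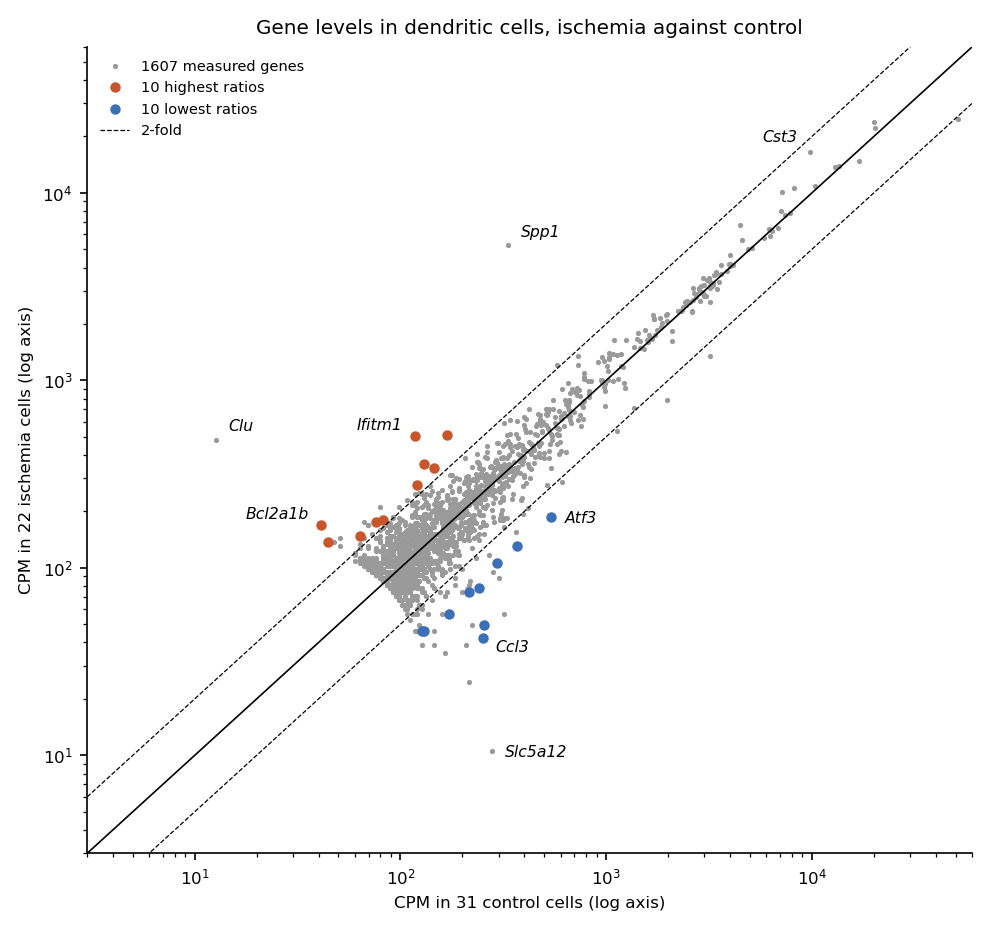
CPM of each of the 1607 measured genes in the 31 control cells (horizontal, log axis) and the 22 ischemia cells (vertical, log axis), with lines at equal and 2-fold levels and the named genes of the highest and lowest ratios coloured. Ifitm1 and Bcl2a1b lie furthest above the lines and Ccl3 and Cd72 furthest below among the coloured genes, while the class II genes lie on the diagonal.

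The gene with the highest ratio among those named was Ifitm1, an interferon-inducible membrane protein, at 117 and 505 CPM (4.30, 2.98 to 6.35). It had a UMI in 8 cells of each library, with at most 10 UMIs in a control cell and 41 in an ischemia cell. Most of it was in Cd209a-led cells, at 234 and 1378 CPM (5.88, 4.01 to 8.81), while Xcr1/Clec9a-led cells had 1 UMI in all. C1q-low myeloid cells also held more of it in ischemia (5 and 896 UMIs, 3.78 and 253 CPM).

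Tagln2, an actin-binding gene, and Psme2, a chain of the proteasome activator PA28, were spread over more cells. Tagln2 had a median of 1 UMI in control, in 22 of 31 cells, and of 3.5 UMIs in ischemia, in all 22 cells, for 168 and 512 CPM (3.04, 2.21 to 4.25). Psme2 had a median of 1 UMI in 19 of 31 control cells and of 3 UMIs in 21 of 22 ischemia cells, for 130 and 357 CPM (2.74, 1.89 to 4.04). Both were higher within each subset: Tagln2 had ratios of 2.85 (1.76 to 4.67) in Cd209a-led and 1.55 (0.878 to 2.80) in Xcr1/Clec9a-led cells, the latter with an interval that holds 1, and Psme2 of 2.29 (1.03 to 5.17) and 2.04 (1.19 to 3.60). The ratios over all cells exceeded those of both subsets, and the 3 ischemia Ccr7-led cells held 3, 14 and 39 of the 145 Tagln2 UMIs and 6, 14 and 16 of the 101 Psme2 UMIs. Tagln2 was higher in ischemia outside the dendritic cells as well: the remaining kept cells were at 81.6 and 244 CPM, C1q-high macrophages had a ratio of 1.99 (1.74 to 2.29), the B cell set of 3.33 (2.39 to 4.73) and thick ascending limb cells of 4.56 (4.14 to 5.03). The B cell set summed to 1718 and 2090 CPM of the B cell list. It also held 6405 and 2548 CPM of the thick ascending limb and distal list and 2577 and 24122 CPM of Spp1. Its ratios in this paragraph are therefore not those of B cells alone. S100a11, a calcium-binding gene of the migration list, was also spread over most cells, with 575 and 1207 CPM (2.10, 1.75 to 2.53), ratios of 1.86 (1.42 to 2.43) and 2.61 (1.94 to 3.55) within the subsets, and a UMI in 30 of 31 and 22 of 22 cells. In C1q-low myeloid cells Tagln2 had a ratio of 2.20 (1.93 to 2.53). Psme2 was higher in all 4 comparison sets too, at 1.30 in C1q-high macrophages, 1.38 in C1q-low myeloid cells, 1.47 in the B cell set and 1.99 in thick ascending limb cells. S100a11 was higher in C1q-high macrophages (2.06, 1.73 to 2.47), the B cell set (1.29, 1.15 to 1.44) and thick ascending limb cells (4.30, 4.15 to 4.47), but not in C1q-low myeloid cells (0.929, 0.879 to 0.982).

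The other named genes of high ratio were more uneven, apart from Zeb1. Bcl2a1b, a survival gene of the BCL2 family with near-identical copies that share reads and so is uncertain, had 13 and 48 UMIs in 7 and 9 cells (4.11, 2.19 to 8.26). The 3 ischemia Ccr7-led cells held 1, 3 and 18 of the 48, and 1 ischemia Xcr1/Clec9a-led cell held 14. Of the 39 ischemia UMIs of Cyb5r4, a reductase gene, 27 came from 1 cell, and the ratio without that cell was 1.03 in place of 3.10. Gpr183, the oxysterol receptor that guides dendritic cells, had a ratio of 2.35 (1.63 to 3.41) over all cells, 2.79 in Xcr1/Clec9a-led and 0.557 in Cd209a-led cells, and 2, 6 and 37 of its 97 ischemia UMIs were in the 3 Ccr7-led cells. The chemokine gene Ccl6 (2.34, 1.34 to 4.20) was higher in Cd209a-led cells (4.14) and lower in Xcr1/Clec9a-led cells (0.133). Tbc1d4, which acts in vesicle traffic (2.28), was at 0.655 in Cd209a-led and 1.33 in Xcr1/Clec9a-led cells, and 32 and 19 of its 78 ischemia UMIs were in 2 Ccr7-led cells. The nuclear receptor gene Nr4a3 (2.18) was at 0.929 and 4.5 in the same subsets. The transcription factor gene Zeb1 (2.32) had UMIs in 12 control and 16 ischemia cells, at most 9 in 1 cell, and was at 3.71 (1.79 to 8.15) and 1.47 (0.679 to 3.33).

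Genes lower in ischemia were led by those of the Cd209a-led cells. Ccl3 had 79 and 12 UMIs (251 and 42.4 CPM, ratio 0.169, 0.0837 to 0.312), found in 9 and 4 cells. Of its 79 control UMIs, 32 were in 1 cell, and the next highest cell had 17. Cd72, an inhibitory receptor, was found in 18 of 31 and 8 of 22 cells (254 and 49.4 CPM, 0.195, 0.102 to 0.346), Clec10a in 19 and 5 cells (241 and 77.7 CPM, 0.322, 0.191 to 0.523) and Cd209a itself in 18 and 7 (368 and 131 CPM, 0.355, 0.238 to 0.518). Cd209a-led cells, the main holders of all 4, were a smaller share of the ischemia cells. Within Cd209a-led cells by themselves the ratios were 0.212 for Ccl3 (0.0933 to 0.422), 0.119 for Cd72 (0.0376 to 0.290), 0.427 for Clec10a (0.236 to 0.730) and 0.592 for Cd209a (0.398 to 0.864). Cd209a chose and assigned these cells, so its ratio is a description. The 7 ischemia cells of that subset held less of the other 3 genes.

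Of the other genes with low ratios, Atf3 and Egr1, immediate early transcription factor genes, were lower in each subset. Atf3 was at 536 and 187 CPM (0.349, 0.251 to 0.477), with ratios of 0.310 in Cd209a-led and 0.201 in Xcr1/Clec9a-led cells. Egr1 was at 295 and 106 CPM (0.359, 0.229 to 0.547), with 0.546 and 0.335 in the same subsets. Of the 93 control UMIs of Egr1, 23 were in 1 cell and 23 in another. Nrp1, a co-receptor for semaphorins and growth factors (0.330), was lower in Xcr1/Clec9a-led cells (0.158) and had 7 and 8 UMIs in Cd209a-led cells (2.12). Of its 54 control UMIs, 27 were in 1 cell, and the next highest cell had 9. The adaptor gene Stap1 had a ratio of 0.343, the linker histone gene Hist1h1c 0.353 and the kinase gene Stk38l 0.361, the last at 1.55 in Xcr1/Clec9a-led cells. For Hist1h1c, 19 of the 41 control UMIs were in 1 cell. In the plot of ratios by subset the intervals are wide wherever a gene had few UMIs.

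**Figure D5:**
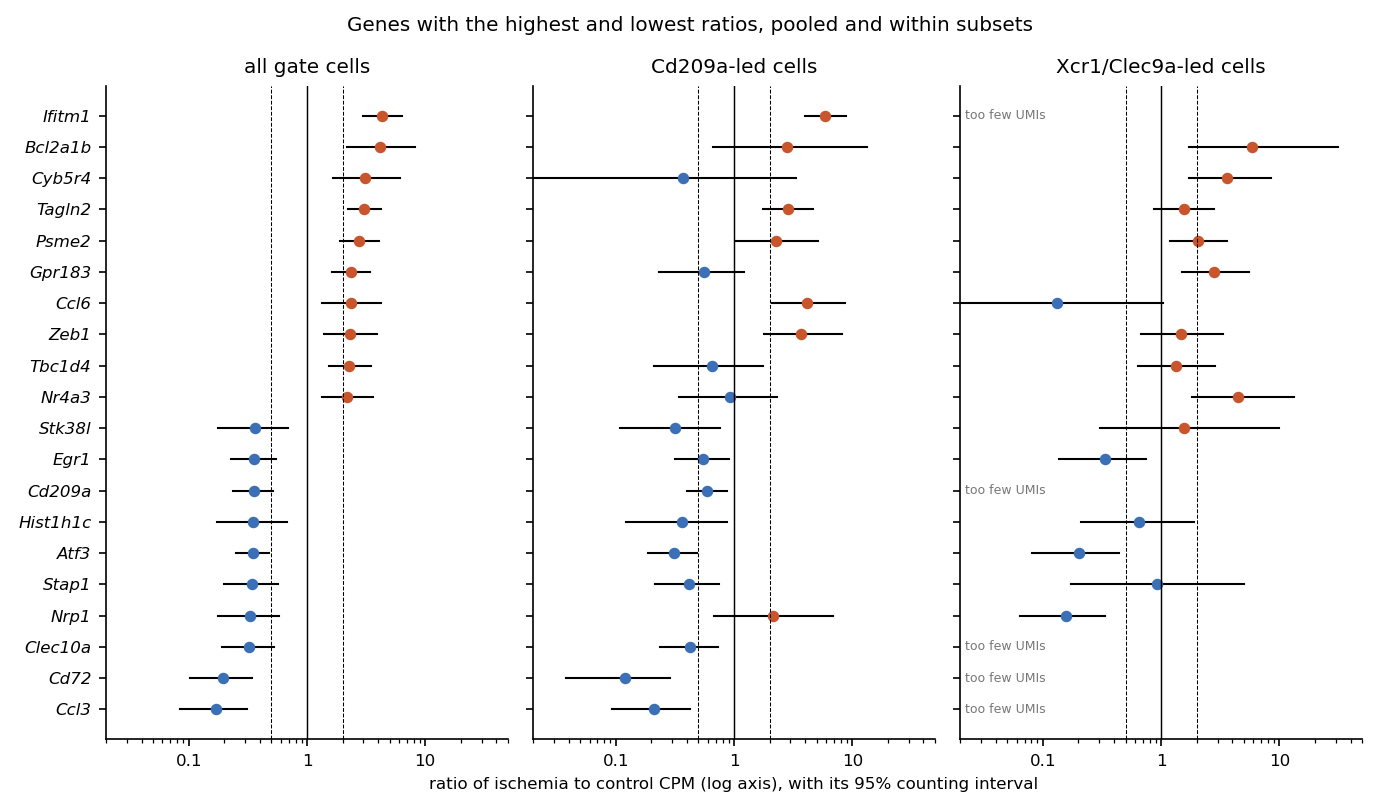
Ratio of ischemia to control CPM (log axis, with 95% counting intervals) of the 10 named genes of highest and the 10 of lowest ratio, over all chosen cells, within Cd209a-led and within Xcr1/Clec9a-led cells. Tagln2 and Psme2 lie above 1 and Atf3 and Egr1 below 1 in all 3 panels, while Cyb5r4, Gpr183, Ccl6, Tbc1d4, Nr4a3, Nrp1 and Stk38l lie on different sides of 1 in the subsets, several with intervals that hold 1, and genes with too few UMIs in a subset have no point there.

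By gene list, 3 of the 6 measured cDC2 genes outside the rule were at least 2-fold lower and 0 higher (median log2 ratio -0.97), against 3.42% lower over all genes. The 3 were Clec10a, Klrd1 (0.487) and Ccr2, the receptor for CCL2 (0.497), and with the rule gene Cd209a the list had 4 of 7 lower and a median of -1.01. With the ischemia cells weighted to the subset mix of the control library the median of the 7 was -0.39, with 1 gene lower and 1 higher. The mix is itself set by Cd209a, and what part it has in the shift was not tested. The 11 measured cDC1 genes outside the rule had a median of 0.33, with 1 at least 2-fold higher, Itgae (2.03, 1.27 to 3.32), against 1.99% over all genes. The 8 measured genes of all conventional dendritic cells outside the rule had a median of -0.07, with 0 past 2-fold either way. Within Xcr1/Clec9a-led cells Itgae was at 192 and 327 CPM (1.70, 1.06 to 2.77).

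The 20 migration and cytoskeleton genes had a median log2 ratio of 0.37, with S100a11 past 2-fold and 10 counting intervals above 1, against 200 above and 127 below over all 1607 genes. Actb, for cytoplasmic actin, was at 7142 and 10074 CPM (1.41, 1.33 to 1.49), Vim, for vimentin, at 422 and 706 CPM (1.67, 1.34 to 2.10), and Lgals3, for galectin-3, at 317 and 589 CPM (1.86, 1.44 to 2.404). The 18 immediate early and dissociation genes had a median of -0.41, with Egr1 and Atf3 at least 2-fold lower and 0 higher. Over all 1607 genes 3.42% were at least 2-fold lower and 1.99% higher. Fos was at 978 and 921 CPM (0.942, 0.796 to 1.11) and Jun at 641 and 417 CPM (0.650, 0.513 to 0.819).

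In the lists that follow 0 or 1 gene passed 2-fold, near the 1.99% higher and 3.42% lower over all genes. The 13 MHC class I genes had a median of 0.18 with Psme2 alone past 2-fold, 7 NF-kB genes a median of 0.35 with 0 past it, and 10 dendritic cell transcription factor genes a median of 0.38 with 0 past it. Among 9 measured glycolysis and hypoxia genes (median 0.34) only Hif1a, the oxygen-sensing transcription factor gene, passed 2-fold, at 15 and 39 UMIs (2.89, 1.56 to 5.65). It was near 3-fold in both subsets, at 3.02 (1.16 to 8.40) and 3.06 (1.27 to 8.44). The 13 respiratory chain genes of the nucleus had a median of 0.03 with 0 past 2-fold, and the 14 lysosome genes a median of 0.00, with Ctsl, for cathepsin L, past it (2.13, 1.38 to 3.32), though 37 of its 65 ischemia UMIs and 18 of its 34 control UMIs were each in 1 cell. Cst3 was at 9770 and 16520 CPM over all cells (1.69, 1.62 to 1.77), at 16223 and 25852 CPM in Xcr1/Clec9a-led cells (1.59, 1.52 to 1.68) and at 2832 and 2152 CPM in Cd209a-led cells (0.760, 0.635 to 0.907). In C1q-high macrophages it was at 5352 and 1891 CPM (0.353, 0.339 to 0.368).

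Interferon response genes had a median of 0.27 over the 3 measured, with 0 past 2-fold, antioxidant and iron genes 0.18 over 5, with 0 past it, and co-stimulation genes 0.17 over 4, with 0 past it. Cd83, a maturation marker that stabilises class II and CD86 on the surface, was at 340 and 614 CPM (1.81, 1.41 to 2.32), and at 272 and 728 CPM in Xcr1/Clec9a-led cells (2.68, 1.86 to 3.92). Cd86, a ligand of CD28, was at 330 and 385 CPM (1.17, 0.883 to 1.54). Of the pattern recognition receptor list 2 genes outside the rule were measured (median -0.96, 1 lower, Clec10a), and of the cell cycle list 2 (median -0.35). The 32 UMIs of the mitotic gene Ube2c were all in 1 control cell.

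Within the subsets, list genes picked after their values were seen stood further apart than these. In Cd209a-led cells Plac8, a small cysteine-rich gene of the monocyte list, was at 65.1 and 484 CPM (7.43, 3.65 to 16.7). Cd300a, an inhibitory receptor gene of the cDC2 list, was at 137 and 459 CPM (3.36, 1.92 to 6.03). It thus went against the lower median of that list over all cells. Ctsc, for cathepsin C, was at 436 and 84.6 CPM (0.194, 0.0751 to 0.422). In Xcr1/Clec9a-led cells Mt1, a metallothionein gene, was at 133 and 438 CPM (3.30, 1.99 to 5.73) and Klf2, a transcription factor gene of quiescent leukocytes, at 471 and 80.2 CPM (0.170, 0.0865 to 0.310). Plac8 and Klf2 went in opposite directions in the subsets: Plac8 had a ratio of 0.458 (0.335 to 0.621) in Xcr1/Clec9a-led cells and Klf2 one of 5.11 (2.19 to 13.3) in Cd209a-led cells.

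The study asked about IL-1 receptor signalling in CD11c+ myeloid cells, so the genes of that route are given for all 53 cells. Il1b stood at 908 CPM in the control library (24 of 31 cells, 0 to 48 UMIs, median 4) and 1253 CPM in the ischemia library (16 of 22 cells, 0 to 72 UMIs, median 4), a ratio of 1.38 (1.18 to 1.62). Ischemia C1q-high macrophages were at 1284 CPM against 1612 CPM in control (0.796, 0.749 to 0.847). C1q-low myeloid cells were at 357 and 2267 CPM.

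Il1r1, the signalling receptor for IL-1, had no UMI in any of the 53 cells. By the exact interval, a count of 0 allows up to 11.7 CPM in control and 13.0 CPM in ischemia. The floor of 3 UMIs is 9.52 and 10.6 CPM, and 3 cells are 9.68% of control and 13.6% of ischemia cells. These floors are not upper limits. The remaining kept cells were at 4.38 and 6.07 CPM, the C1q-high macrophages at 1.87 and 1.93 CPM and the C1q-low myeloid cells at 16.6 and 5.64 CPM, so a level like that of macrophages could not be detected at this depth. Il1r2 had 33 and 11 UMIs (105 and 38.8 CPM, 0.371, 0.169 to 0.752), found in 11 and 3 cells. Il1rn, the secreted IL-1 receptor antagonist, had 0 and 7 UMIs, the latter in 3 ischemia cells. By the exact interval this is at least 1.60-fold higher (2.59-fold against a floor of 3 UMIs over the control cells). In C1q-high macrophages it had 5 and 72 UMIs (7.43, 3.04 to 23.6). Il1rap, the shared co-receptor, had 2 and 12 UMIs (ratio 6.67, 1.49 to 61.4), Myd88, the adaptor of the receptor, 6 and 24 UMIs in 5 and 12 cells (4.45, 1.77 to 13.3), and Irak2, a kinase of the same route, 46 and 22 UMIs (0.532, 0.305 to 0.902). Of the 17 genes of this list only 2 had enough UMIs to be measured by the limit of 50 UMIs in 10 cells, with 0 past 2-fold.

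Among chemokines and cytokines, 4 of 15 ligands and 2 of 17 cytokines were measured, and the rest had few UMIs or few cells with any. Ccl17 had 33 UMIs in 1 control cell and 116 in 3 ischemia cells, and 73 of the 76 ischemia UMIs of Ccl22 came from 1 cell. Ccl2, which draws monocytes, had 41 UMIs in 5 control cells and 1 in ischemia (ratio 0.0271, 0.000671 to 0.160), whereas in C1q-high macrophages it was at 180 and 907 CPM. The 12 UMIs of the interferon-induced chemokine gene Cxcl10 were all in 1 ischemia cell. Tnf had 14 and 7 UMIs and Il12b, which drives T helper type 1 responses, 1 and 6, too few to compare.

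UMIs of other cell types were present. The macrophage list summed to 419 and 374 CPM in the chosen cells, against 23638 and 20228 CPM in the C1q-high macrophages. The monocyte list summed to 1295 and 1179 CPM, against 1236 and 11556 CPM in the C1q-low myeloid cells. Its most abundant gene was Plac8 (142 and 110 UMIs), higher in ischemia in Cd209a-led cells and lower in Xcr1/Clec9a-led cells. The pooled sum does not show this. Of the same list Ly6c2 had 0 and 1 UMIs and Chil3, Vcan, Fn1, Ace and F10 were at 0 in both. The neutrophil list summed to 117 and 45.9 CPM, most of it Il1r2, with S100a8 at 0 and S100a9 at 0 and 2 UMIs. The T and NK cell list had 1 UMI in all, and the B cell list summed to 105 and 77.7 CPM.

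Genes of kidney cells were present too. Lrp2, Slc34a1, Umod and Slc12a1, genes of tubule cells, together had 1 to 51 UMIs per control cell (median 4) and 0 to 10 per ischemia cell (median 2), and a limit of fewer than 3 would have kept 3 of 31 control and 14 of 22 ischemia cells. The proximal tubule list summed to 2714 and 925 CPM (14827 and 9600 CPM in the remaining cells), with 5 of 6 measured genes at least 2-fold lower in ischemia, against 3.42% over all genes. Of the 88 control UMIs of Slc5a12, a lactate transporter gene, 81 were in 1 cell. The thick ascending limb and distal list summed to 394 and 138 CPM. The endothelial list summed to 727 and 169 CPM, of which 2 control cells held 67 and 157 UMIs and 1 ischemia cell 42. Spp1, the injury gene osteopontin, stood at 333 and 5256 CPM, with 757 of its 1489 ischemia UMIs in 1 cell, while the remaining cells of the libraries were at 3297 and 25488 CPM. Clu, for clusterin, was at 12.7 and 484 CPM (297 and 2716 CPM in the remaining cells), with 106 of 137 ischemia UMIs in 1 cell. Proximal tubule, thick ascending limb, Spp1 and Clu levels thus went the same way between the libraries as in the remaining cells, whereas the endothelial list was at 349 and 434 CPM there. The part of these UMIs in the genes past 2-fold was not tested.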

How the data were processed

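Kidney cells of 1 control and 1 ischemia library were profiled by the 10x 3′ method. Counts were deposited by the authors as unnormalized UMIs per gene and cell barcode, made with Cell Ranger 7.0.0 on mm10 per the labels and file headers; the annotation release and the treatment of strand are not given in the sources used here. The matrices held 15110 and 15257 barcodes and 142686238 and 142959737 UMIs. The limits the study states were applied (at least 200 genes, 500 to 150000 UMIs, at most 55% mitochondrial UMIs), which left 12586 and 13116 cells, the numbers the methods give.

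The dendritic cell rule and the gene lists were chosen with earlier results of these data known. Cells were assigned to subsets by which of Cd209a, Xcr1 with Clec9a, or Ccr7 had most UMIs. For comparison, C1q-high macrophages had at least 0.5% C1q UMIs and no Cd3e or Cd79a. C1q-low myeloid cells had less C1q, no Cd3e or Cd79a, at least 3 UMIs of Lyz2, Csf1r, Ccr2 and Fcgr1 and under 1% S100a8 and S100a9. They also had fewer than 2 UMIs of the 5 dendritic cell rule genes together. B cells had at least 3 UMIs of Cd79a, Cd79b and Ms4a1 and no Cd3e, and thick ascending limb cells at least 5 UMIs of Slc12a1. None of them was a chosen cell. Barcodes were not doublet-filtered beyond the UMI limit. Scrublet (scanpy 1.11.5) called 0 cells in either library, which does not show that doublets were absent.

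UMIs were summed over cells and given as CPM. Intervals for ratios are exact conditional binomial and those for shares Clopper-Pearson, at 95%, and no model was fitted across genes because each condition is 1 library. A gene was measured with at least 50 UMIs in at least 10 chosen cells. Named were the rule genes, the members of the lists and the 10 genes of highest and of lowest ratio among those at least 2 times the remaining cells of the library where they were higher. In Poisson counts simulated for 1629 genes 95.4% of the intervals held the true ratio. The intervals assume such counts, so this checks the calculation only. It does not cover UMIs that are uneven between cells. Of 32285 gene identifiers 32158 were in GENCODE M21 (GRCm38). Python 3.11.15, numpy 2.4.6, scipy 1.17.1 and pandas 2.3.3 were used. Alternatives covered the quality limits, each condition of the rule, doublet scores, UMIs of other cell types, thinning of each cell to 1000 UMIs, gene limits and the mix of subsets.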

Additional observations from a re-analysis of the deposited data

How the results depend on the processing

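With 1 library per condition no library could be left out, and small numbers of cells limit every value. No paired analysis was possible because each condition has 1 library and the results come from no test. Of the alternatives run, 341 values for single genes, 268 for gene lists and 128 for numbers, shares and counts stayed within their limits (the interval of the reported value or, for numbers of cells and genes, a factor of 1.5), and 66, 18 and 28 moved; 17 ratios changed sides of 1. Scrublet called no cell, so leaving out its calls gave the reported values. The alternatives with doublet scores, with UMIs of endothelial or proximal tubule cells, without the class II floor and with the gene counts by subset, by mix or without the top cell were chosen after the data were seen.

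The hardest limit was on UMIs of tubule or neutrophil genes: without cells that had at least 3, 3 control cells (0.0238%) and 14 ischemia cells were left, the control shares were 33.3% Cd209a-led, 0% Xcr1/Clec9a-led and 33.3% Ccr7-led, and the ratios of Bcl2a1b (0.776), Ccl6 (0.528), Tbc1d4 (0.585), Nr4a3 (0.753), Cd209a (1.19) and Ccr7 (0.314) turned. With a minimum of 1000 UMIs the same numbers of dendritic cells were 0.343% of control and 0.279% of ischemia cells. The control share led by Ccr7 was 0% when Ccr7 was not counted, with a class II share of at least 2% and without the highest 8% of doublet scores. Thinned to 1000 UMIs, 19.4% of control and 4.55% of ischemia cells were Cd209a-led and 18.2% of ischemia cells Xcr1/Clec9a-led.

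Ratios also turned within Cd209a-led cells for Cyb5r4 (0.371), Gpr183 (0.557), Tbc1d4 (0.655), Nr4a3 (0.929) and Nrp1 (2.12), within Xcr1/Clec9a-led cells for Ccl6 (0.133) and Stk38l (1.55), within Ccr7-led cells for Zeb1 (0.989), with a class II share of at least 2% for Nrp1 (1.12) and after thinning for Nrp1 (1.06) and Stap1 (1.13).

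Against 32 genes at least 2-fold higher in ischemia there were 49 with C1q at 0, 78 without the cells with tubule or neutrophil UMIs, 4 after thinning, 20 without the 1 cell with most UMIs of each gene (13 of them among the 32), 176 with a limit of 20 UMIs in 5 cells, 2 with 200 UMIs in 10 cells and 15 among genes at least 2 times the remaining cells. Against 55 lower genes there were 30 without the highest 8% of doublet scores, 33 without cells of at least 50 proximal tubule UMIs, 6 after thinning, 19 within Cd209a-led and 33 within Xcr1/Clec9a-led cells, 299 with 20 UMIs in 5 cells, 6 with 200 UMIs and 26 among genes at least 2 times the remaining cells. Thinning and the limits on genes leave fewer or more genes measured; the cause of the other shifts was not tested.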
